A study of Mus musculus with 20 samples.

Results

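The nuclear genes for the subunits of oxidative phosphorylation were followed in microglia of mice that carry the V600E form of Braf. Members were the protein-coding genes whose symbols begin with Nduf followed by a, b, c, s or v and a digit, are Sdha, Sdhb, Sdhc or Sdhd, or begin with Uqcr, with Cox4 to Cox8 or with Atp5. The rule uses names and no measured value, and it found 85 of 55487 gene identifiers, which carry 84 distinct symbols. Of these, 35 belong to complex I, 4 to complex II, 8 to complex III, 20 to complex IV and 18 to complex V. A filter on low counts kept 78 of the 85 members and 16595 of all genes.

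Bulk RNA sequencing gave 20 libraries from 10 mice, with 1 library labelled brainstem and 1 labelled cortex from each mouse. Every litter was exposed in the womb to 4-hydroxytamoxifen, given to the mother at 37.5 mg per kg on embryonic day 9.5, and the recombinase CreER was driven by the Cx3cr1 promoter, which is active in microglia and other mononuclear phagocytes. Mutant mice, here VE, carried the activatable Braf V600E allele and 1 CreER allele (Braf VE; CX3 HET). At end-stage there were 2 VE mice (M1376 and M1524) and 2 control mice, here Ctrl. Control M1375 had the Braf allele without CreER (Braf VE; CX3 WT), and control M1521 had CreER without the Braf allele (Braf WT; CX3 HET). At 2 months there were 3 VE mice (M2617, M2621 and M2624) and 3 Ctrl mice (M2618, M2629 and M2633, labelled Braf WT; CX3 HET). No source used here gives the ages at end-stage or how the cells were isolated.

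The depth of a library was 9400000 to 21200000 deposited counts, so that 3 counts, the limit that a count of 0 allows, stood for 0.142 to 0.319 CPM (counts per 1000000 counts of the scaled library). The 12 microglia markers, P2ry12 and Tmem119 among them, summed to 44761 to 81243 CPM, against 129 to 1510 CPM for the 6 astrocyte markers, most of which was Slc1a3 (125 to 1508 CPM). In 5 of 6 mice of the 2-month stage, a library's title and its count column name different mouse numbers. Genotype here follows the number of the count column, looked up among the titles, and for 4 mice this is not the genotype of the sample record itself. Results at 2 months, and those that compare stages, follow the count-column reading unless the record's reading is named beside them. An earlier look at these data found that transcripts typical of brainstem tissue went against the region labels, so libraries are called brainstem-labelled and cortex-labelled throughout. The sets of members with their highest value in a given library were uneven: 28 members peaked in the brainstem-labelled library of Ctrl mouse M2618, 20 in the cortex-labelled library of VE mouse M2621 and 14 in the brainstem-labelled library of Ctrl mouse M2633.

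Oxidative phosphorylation takes place in the inner mitochondrial membrane. Complexes I (NADH dehydrogenase) and II (succinate dehydrogenase) pass electrons to ubiquinone, complex III passes them on to cytochrome c, and complex IV (cytochrome c oxidase) hands them to oxygen, while complex V (ATP synthase) uses the proton gradient to make ATP. All subunits of complex II and most of the others are encoded in the nucleus, and a few core subunits of complexes I, III, IV and V are encoded in mitochondrial DNA. Resting microglia use oxidative phosphorylation, and strongly activated macrophages are known to lean more on glycolysis.

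Promoter sequences of the members are shown first because nuclear subunit genes are a textbook case of control by the factors NRF1, GABPA (an ETS factor) and YY1. RefSeq's table for GRCm38.p6 held a window of 300 bases, 250 before the start site and 50 after it, for 68 of the 85 members, and some had more than 1 window. The letters GCGCATGC, the core of the NRF1 motif, stood on either strand in 10 of 68 members (14.7%), against 624 of 10736 genes kept by the filter (5.81%) and 824 of all 27025 genes in the table (3.05%). On either strand, AAGATGGC, the YY1 letters, were found in 10 members (14.7%), against 5.25% of kept genes and 3.19% of all. For CCGGAAGT, the ETS letters, the members' share was 5 of 68 (7.35%), against 9.06% of kept genes and 4.31% of all. At least 1 of the 3 was present in 24 members (35.3%), against 18.6% of kept genes and 9.91% of all. YY1 letters stood in 7 of 31 complex I promoters and in 0 of 14 complex IV promoters. GCGCATGC and its reverse complement GCATGCGC can overlap each other, and a match is a description of these windows, not a measured binding site.

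The 5 windows below are printed 5′ to 3′ on the strand of the gene, with the matched letters in capitals. Cox6a1 (chr5:115348909-115349208, minus strand) encodes the general isoform of a complex IV subunit and holds overlapping NRF1 letters. Uqcr11 (chr10:80406772-80407071, minus strand) encodes a small complex III subunit and holds ETS and NRF1 letters. Ndufs7 (chr10:80249199-80249498, plus strand), a core iron-sulfur subunit of complex I, holds YY1 letters just after its start site. Cox6b2 (chr7:4753045-4753344, minus strand) and Ndufs8 (chr19:3912725-3913024, minus strand) are shown because they differed between the regions, and neither window holds any of the 3.
Cox6a1: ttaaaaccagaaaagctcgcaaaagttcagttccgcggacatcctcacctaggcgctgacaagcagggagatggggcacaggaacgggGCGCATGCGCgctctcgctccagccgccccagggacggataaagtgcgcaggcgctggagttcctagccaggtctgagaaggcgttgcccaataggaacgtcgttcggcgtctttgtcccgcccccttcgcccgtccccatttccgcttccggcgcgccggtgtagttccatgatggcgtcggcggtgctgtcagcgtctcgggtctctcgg
Uqcr11: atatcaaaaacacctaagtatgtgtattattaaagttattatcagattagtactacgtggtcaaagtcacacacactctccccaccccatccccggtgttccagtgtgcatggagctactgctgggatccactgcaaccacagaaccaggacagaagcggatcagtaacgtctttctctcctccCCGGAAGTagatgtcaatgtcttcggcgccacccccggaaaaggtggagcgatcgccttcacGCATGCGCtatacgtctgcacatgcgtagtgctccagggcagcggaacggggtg
Ndufs7: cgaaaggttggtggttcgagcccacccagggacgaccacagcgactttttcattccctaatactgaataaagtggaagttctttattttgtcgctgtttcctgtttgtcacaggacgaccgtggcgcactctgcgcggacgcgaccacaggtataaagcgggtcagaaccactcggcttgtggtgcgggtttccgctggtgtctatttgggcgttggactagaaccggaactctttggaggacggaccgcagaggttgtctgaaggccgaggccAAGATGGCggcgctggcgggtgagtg
Cox6b2: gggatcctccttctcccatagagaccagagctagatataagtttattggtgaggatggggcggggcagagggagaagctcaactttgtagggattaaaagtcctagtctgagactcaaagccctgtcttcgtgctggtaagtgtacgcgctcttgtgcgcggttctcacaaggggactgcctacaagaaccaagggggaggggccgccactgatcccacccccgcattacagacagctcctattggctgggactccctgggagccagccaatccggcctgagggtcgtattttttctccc
Ndufs8: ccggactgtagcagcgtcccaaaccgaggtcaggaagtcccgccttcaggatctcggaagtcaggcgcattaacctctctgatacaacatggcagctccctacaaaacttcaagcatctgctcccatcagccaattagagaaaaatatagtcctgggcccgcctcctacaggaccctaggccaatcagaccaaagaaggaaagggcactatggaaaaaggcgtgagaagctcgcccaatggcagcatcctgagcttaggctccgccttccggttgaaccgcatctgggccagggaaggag

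Most members had high transcript levels, which differed widely between members and less between libraries. Per kilobase of mRNA, the median member stood at 71.3 CPM over the 20 libraries, against 6.58 CPM per kilobase for the 12589 protein-coding genes kept. The highest level was that of Atp5b, the catalytic beta subunit of ATP synthase, at 335 CPM per kilobase. Cox4i1, the regulatory subunit of complex IV, followed at 262, and Cox6a1 at 193 CPM per kilobase. The lowest levels among kept members were those of Atp5s, a coupling factor of ATP synthase, at 10.5 CPM per kilobase, Cox6a2, the heart and skeletal muscle isoform of Cox6a1, at 5.77, and Cox6b2, the testis isoform of Cox6b1, at 4.14. These levels depend on the mRNA length chosen for each gene.

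By complex, the median level per kilobase was 52.9 CPM for complex I, 104 for complex II, 79.5 for complex III, 75.8 for complex IV and 89.3 CPM for complex V. Within complex I, the core subunits spread widely, with Ndufs8 at 154, Ndufs7 at 134, Ndufv1 at 48.8, Ndufv2 at 34.8 and Ndufs1 at 20.5 CPM per kilobase. In complex II, the iron-sulfur subunit Sdhb stood at 161, the membrane anchor Sdhd at 129.6, the flavoprotein Sdha at 77.6 and the other anchor Sdhc at 29.0 CPM per kilobase. Uqcrc1, a core protein of complex III, stood at 170.2 CPM per kilobase and the Rieske iron-sulfur protein Uqcrfs1 at 69.5. Over the 20 libraries, the coefficient of variation had a median of 20.6% for members and 29.0% for the other kept protein-coding genes, and 74 of 78 members were under 30%. Those other genes were not matched to the members by level, and the part of level in this difference was not tested.

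**Figure D1:**
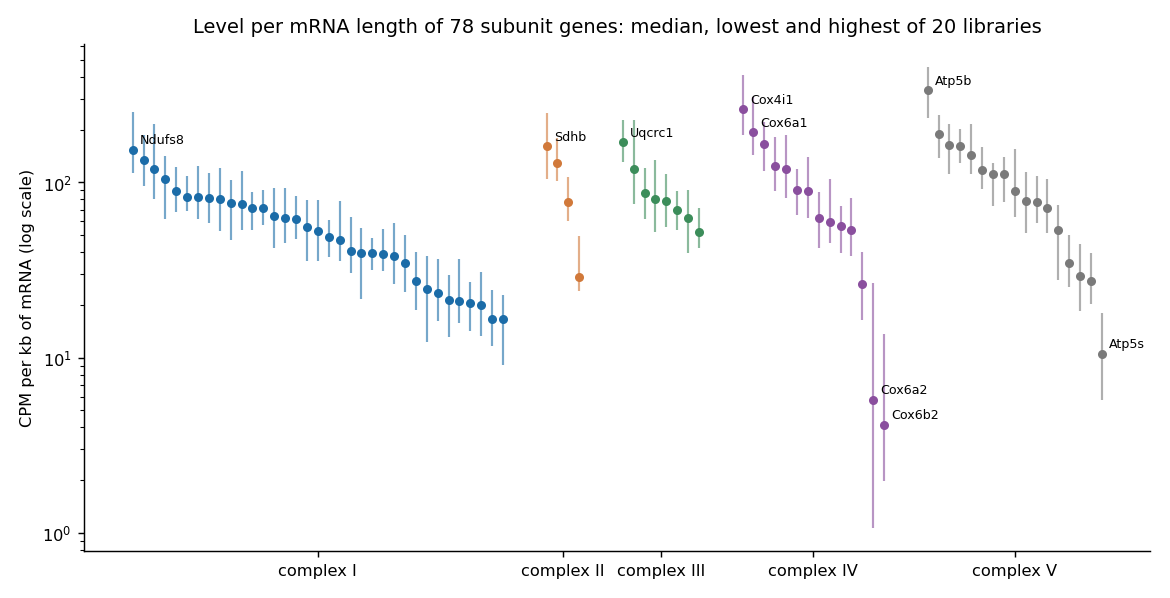
Median level of each of the 78 kept members over 20 libraries, in CPM per kilobase of mRNA on a log axis, grouped by complex I to V. Each point is 1 gene, and most members lie well above the median of 6.58 CPM per kilobase of all kept protein-coding genes.

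The filter removed 7 members, which had few or no counts. Cox4i2, an isoform of Cox4i1 found in lung, had 34 counts over all 20 libraries, and Cox7a1, the heart and muscle isoform of Cox7a2, had 33. Cox8b, a muscle isoform, had 2 counts. Cox7b2, Cox8c and Ndufa4l2 had 0 counts, which allows up to 3 counts in each library. A second identifier of Atp5o also had 0 counts, but all 530 of its exonic bases are shared with other genes, Atp5o and Donson. How such reads were counted is not given, so this 0 sets no limit. The general counterparts of the isoforms, Cox4i1, Cox7a2, Cox8a, Cox7b and Ndufa4, stood at 262, 59.5, 165, 26.2 and 124 CPM per kilobase.

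At end-stage, the brainstem-labelled libraries of VE mice held most members at lower values than those of Ctrl mice, but no member passed the test. The VE minus Ctrl difference was negative for 71 of 78 members and positive for 7, with a median of -0.36 on the log2 scale, where all genes tested had a median of -0.02. In edgeR's quasi-likelihood test with Benjamini-Hochberg adjustment, 0 of 78 members were called, and 0.151% of all genes tested were called. At an unadjusted p under 0.05 there were 12 members, 11 of them lower in VE, and limma-voom called 0 members while DESeq2 called 1, Atp5s. The median standard error of a member's difference was 0.24. In bulk RNA, fewer cells of a type and less RNA per cell cannot be told apart.

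All 4 libraries could be placed in order for most members. Values of the 2 VE libraries lay wholly below those of the 2 Ctrl libraries for 59 of 78 members (75.6%), while 20.5% of all genes tested did so. They lay wholly above for 4 members (5.13%), against 18.5% of all genes. Medians of the difference were alike across the complexes, at -0.39 for complex I, -0.28 for complex II, -0.31 for complex III, -0.34 for complex IV and -0.32 for complex V. The sums over all members were 5212 and 5473 CPM in VE libraries (M1376 and M1524) and 5440 and 6498 CPM in Ctrl libraries (M1375 and M1521), so the sums overlapped through M1375, the control without CreER. For complex I alone the sums were 1519 and 1548 CPM in VE libraries and 1799 and 2060 CPM in Ctrl libraries, with no overlap.

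Atp5s had the lowest p among members in that comparison. Its values were 8.55 and 8.83 CPM in VE libraries, and 26.6 and 19.9 CPM in Ctrl libraries, and the groups did not overlap. The log2 difference was -1.42 ± 0.36 (SE), with an adjusted p of 0.111. Atp5mpl, a small proteolipid of ATP synthase, had 10.2 and 13 CPM in VE libraries and 19.7 and 19.9 CPM in Ctrl libraries, a difference of -0.77 ± 0.24 with an adjusted p of 0.214. Ndufs4, an accessory subunit whose loss causes a Leigh-like encephalopathy in mice, had 27.0 and 28.6 CPM in VE libraries and 41.1 and 40.3 CPM in Ctrl libraries, with an adjusted p of 0.365. All 3 stood apart without overlap, and none passed.

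Positive differences were found for 7 members. Cox7a2l, a relative of Cox7a2 that links complexes III and IV into supercomplexes, had 61.2 and 60.4 CPM in VE libraries and 42.6 and 46.4 CPM in Ctrl libraries (log2 difference 0.45 ± 0.20, adjusted p = 0.434). Sdha, which carries the flavin of complex II, had 245 and 266 CPM in VE libraries and 199 and 202 CPM in Ctrl libraries (0.35 ± 0.19, adjusted p = 0.547). Atp5b and Atp5a1, the beta and alpha subunits of the ATP synthase head, had differences of 0.29 ± 0.17 and 0.25 ± 0.17. The other 3 subunits of complex II differed by -0.53 (Sdhb), -0.40 (Sdhc) and -0.16 (Sdhd), so Sdha stood on the other side of 0 from its partners, with none past the test.

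In cortex-labelled libraries at end-stage most members again had lower values in VE, by less at the median, and no member passed. Differences were negative for 60 of 78 members and positive for 18, with a median of -0.18, against 0.02 for all genes tested. The edgeR test called 0 of 78 members, while 4.01% of all genes tested were called; 5 members had an unadjusted p under 0.05, and DESeq2 and limma-voom called 0 each. VE values lay wholly below Ctrl values for 46 members (59%), against 24.0% of all genes, and wholly above for 7 (8.97%), against 25.1% of all genes. Complex I had a median difference of -0.29 and complex IV of -0.01. Complex I summed to 1579 and 1526 CPM in VE libraries and to 1916 and 1828 CPM in Ctrl libraries, without overlap.

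Ndufb3, an accessory subunit of the membrane arm of complex I, had 21.3 and 16.5 CPM in VE libraries and 31.1 and 33.3 CPM in Ctrl libraries. Its log2 difference was -0.77 ± 0.27 (adjusted p = 0.139), and the groups did not overlap. Atp5f1, which forms part of the peripheral stalk of ATP synthase, had 137 and 118 CPM in VE libraries and 172 and 165 CPM in Ctrl libraries (-0.40 ± 0.16, adjusted p = 0.183). Of the members on the positive side, Cox7a2l had 79.1 and 73.2 CPM in VE libraries and 56.8 and 53.3 CPM in Ctrl libraries (0.47 ± 0.20, adjusted p = 0.217). Cox6b2 had 4.91 and 6.37 CPM in VE libraries and 2.33 and 2.74 CPM in Ctrl libraries (1.15 ± 0.55, adjusted p = 0.285). Cox4i1 had a difference of 0.44 ± 0.23. In these libraries, where 4.01% of all genes tested were called, 5 of 12 microglia markers were lower in VE (P2ry12, Gpr34, Fcrls and Sall1 among them). The 6 monocyte markers summed to 29.4 and 84.0 CPM in VE libraries and 7.2 and 17.7 CPM in Ctrl libraries, with none passing. Kdr (2.87) and Flt1 (6.0) were higher and Pecam1 (-1.57) lower among 6 endothelial and pericyte markers, which summed to 35.7 and 58.7 CPM in VE libraries and 37.1 and 24.1 CPM in Ctrl libraries. The astrocyte marker Gfap was higher (5.22) among 6 astrocyte markers. Their sums overlapped, at 735 and 237 CPM in VE libraries and 129 and 1135 CPM in Ctrl libraries. The lymphocyte markers Klrd1 (-4.55), Cd79b (-2.07) and Ighm (-1.51) were lower. Klrd1 rests on few reads in VE libraries. The 4 T and NK markers together summed to 0.33 and 0.065 CPM there and to 4.87 and 3.70 CPM in Ctrl libraries. The part of these shifts in the members' values was not tested.

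**Figure D2:**
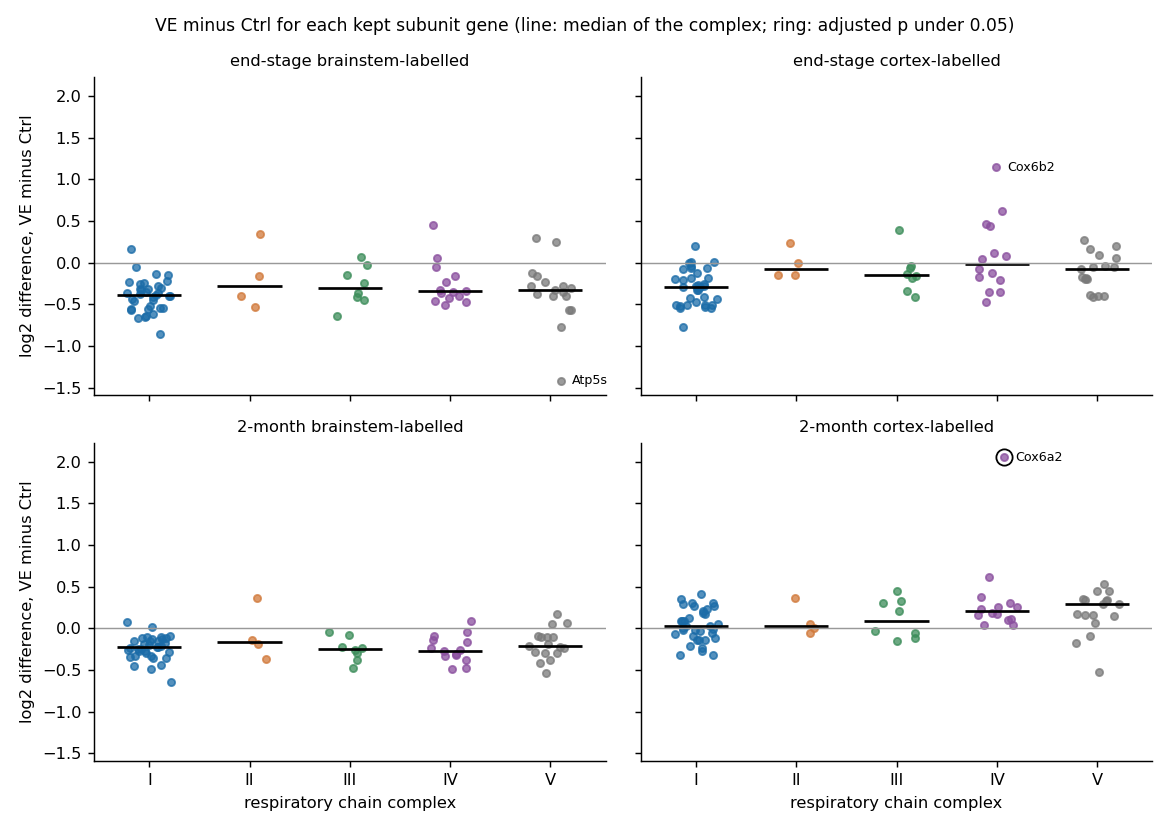
Log2 difference, VE minus Ctrl, of each kept member in the 4 genotype comparisons, grouped by complex. Points below 0 are lower in VE: 71 of 78 in each brainstem-labelled comparison, 60 in cortex-labelled libraries at end-stage and 24 in cortex-labelled libraries at 2 months.

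At 2 months, brainstem-labelled libraries showed negative differences for 71 of 78 members, with a median of -0.23 where all genes tested had 0.00. No member passed. The edgeR test called 0 of 78 members and 0.0362% of all genes tested; 7 members had an unadjusted p under 0.05, 6 of them lower in VE, and DESeq2 and limma-voom called 0 each. With 3 mice a group, overlap was the rule: VE values lay wholly below Ctrl values for 6 members (7.69%), against 6.51% of all genes, and wholly above for 1 (1.28%), against 7.19%. The share of members wholly below is near the background. The members' median was -0.13 without VE mouse M2617 and -0.37 without VE mouse M2621. Under the sample record's genotypes it was 0.16, with 73 members positive.

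Ndufa5, an accessory subunit of complex I, had 11.5, 14.7 and 10.1 CPM in VE libraries and 21.3, 16.7 and 18.7 CPM in Ctrl libraries. The difference was -0.64 ± 0.23 (adjusted p = 0.414), and no VE value reached the lowest Ctrl value. Atp5l, subunit g of ATP synthase, had 14.3, 17.1 and 14.7 CPM in VE libraries and 27.1, 18.4 and 21.4 CPM in Ctrl libraries (-0.54 ± 0.21, adjusted p = 0.444), also without overlap. Sdha was again on the other side, with 302, 240.3 and 266 CPM in VE libraries and 224, 175 and 226 CPM in Ctrl libraries (0.37 ± 0.15, adjusted p = 0.494). Every VE value of Sdha was above every Ctrl value. Under the record's genotypes the values of all 3 overlapped between the groups, with differences of 0.23 for Ndufa5, 0.35 for Atp5l and -0.01 for Sdha.

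In cortex-labelled libraries at 2 months, 1 member rose in VE: Cox6a2, with the edgeR test calling 1 of 78 members and 5.45% of all genes tested. Differences were positive for 54 members and negative for 24, with a median of 0.13, against -0.01 for all genes. That median was -0.07 without VE mouse M2621, 0.27 without VE mouse M2624 and -0.26 under the record's genotypes. VE values lay wholly above Ctrl values for 7 members (8.97%), against 13.4% of all genes, and wholly below for 0, against 11.3%. Complex V had a median difference of 0.29 and complex IV of 0.21, with 14 of 14 kept complex IV members positive, while complexes I, II and III stood at 0.02, 0.03 and 0.09. All members together summed to 6071, 7740 and 5544 CPM in VE libraries and 5020, 5918 and 6330 CPM in Ctrl libraries, which overlap.

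Cox6a2 encodes the isoform of cytochrome c oxidase subunit 6a that heart and skeletal muscle use in place of Cox6a1. It lay at 18.1, 13.3 and 10.0 CPM in VE libraries (M2617, M2621 and M2624) and at 4.76, 4.41 and 0.727 CPM in Ctrl libraries (M2618, M2629 and M2633). The lowest VE value was more than the highest Ctrl value. VE libraries averaged 13.8 ± 4.05 CPM and Ctrl libraries 3.30 ± 2.23 CPM (SD, n = 3 each), a log2 difference of 2.05 ± 0.51 with an adjusted p of 0.0244 in edgeR, or 4.15-fold. As a share of the Cox6a1 and Cox6a2 pair, per kilobase, it made up 5.94% to 12.0% in VE libraries and 0.540% to 4.63% in Ctrl libraries. Under the record's genotypes the difference was -1.20 with an adjusted p of 1.0. Leaving out VE mouse M2617 gave an adjusted p of 0.107, leaving out VE mouse M2621 gave 0.0619, and leaving out Ctrl mouse M2629 gave 0.0559, so that 0 members passed. Without VE mouse M2624, 2 members passed, Cox6a2 and Cox4i1.

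At end-stage the same gene, Cox6a2, had 10.9 and 10.4 CPM in VE cortex-labelled libraries and 4.66 and 9.10 CPM in Ctrl ones, a difference of 0.62 ± 0.61 that did not pass (adjusted p = 0.648). Its gene lies at chr7:128205435-128206387 on the minus strand (GRCm38), and 70 of its 680 exonic bases are shared with exons of Itgad on the plus strand. The whole of Cox6a2 lies within the span of Itgad (chr7:128154376-128223816). No source used here says whether counting used the strand. Reads of Itgad, spliced or unspliced, therefore cannot be told apart from those of Cox6a2 over this stretch. Itgad, an integrin alpha chain, had 2.15 to 4.07 CPM in VE and 0.198 to 1.35 CPM in Ctrl cortex-labelled libraries at 2 months (log2 difference 1.99, adjusted p = 0.341). Its neighbour Itgax, which encodes the integrin CD11c of activated microglia and dendritic cells, had 54.3 to 111 CPM in VE and 10.6 to 17.1 CPM in Ctrl libraries (2.67, adjusted p = 0.0131). Both neighbours were looked up after the values of Cox6a2 were seen, and their part in its result was not tested.

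Cox4i1 and Atp5b came next in the same libraries and did not pass. Cox4i1 had 237, 306 and 199.6 CPM in VE libraries and 139, 175 and 170.1 CPM in Ctrl libraries, with no overlap (0.62 ± 0.19, adjusted p = 0.0629). Atp5b had 708, 873 and 672 CPM in VE libraries and 546, 519 and 585 CPM in Ctrl libraries, also with no overlap (0.45 ± 0.14, adjusted p = 0.0700). DESeq2 and limma-voom with mouse as a random block called both of them as well as Cox6a2. Atp5e, the epsilon subunit of the ATP synthase head, had 45.9, 48.4 and 32.3 CPM in VE libraries and 22.3, 33.5 and 31.6 CPM in Ctrl libraries, which overlap (0.53 ± 0.21, adjusted p = 0.168). Under the record's genotypes Cox4i1 differed by -0.49, Atp5b by -0.22 and Atp5e by -0.57, and none passed. Of the members on the negative side the lowest p was that of Ndufs1, the large iron-sulfur subunit of complex I, at -0.32 ± 0.18 (adjusted p = 0.332), against 0.28 under the record's genotypes.

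Markers of other cells differed between the groups in those cortex-labelled libraries at 2 months, where 5.45% of all genes tested were called. Among 6 monocyte markers 2 rose in VE, Plac8 and Ms4a4c, and the list summed to 152, 196 and 188 CPM in VE libraries and 6.9, 21.2 and 11.5 CPM in Ctrl libraries. Ccr2, the defining chemokine receptor of monocytes, stayed at 1.2 to 1.5 CPM in VE libraries and 0.4 to 4.1 CPM in Ctrl libraries. Of 7 markers of border-associated macrophages 1 rose, Siglec1, while Lyve1 was at 0 in VE libraries. Of 12 microglia markers 3 were lower in VE (Gpr34, P2ry12 and Sall1). Kdr (2.78) and Flt1 (4.51) were higher in VE among 6 endothelial and pericyte markers, which summed to 66.4, 72.3 and 72.4 CPM in VE libraries and 34.2, 33.0 and 21.9 CPM in Ctrl libraries. Cldn5, a defining endothelial gene, lay at 0 to 0.41 CPM in VE libraries. Cd79b was lower (-1.33), and the B-cell markers summed to 516, 423 and 633 CPM in VE libraries and 766, 656 and 657 CPM in Ctrl libraries. Under the record's genotypes none of the genes named here passed. Their part in the members' differences was not tested.

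**Figure D3:**
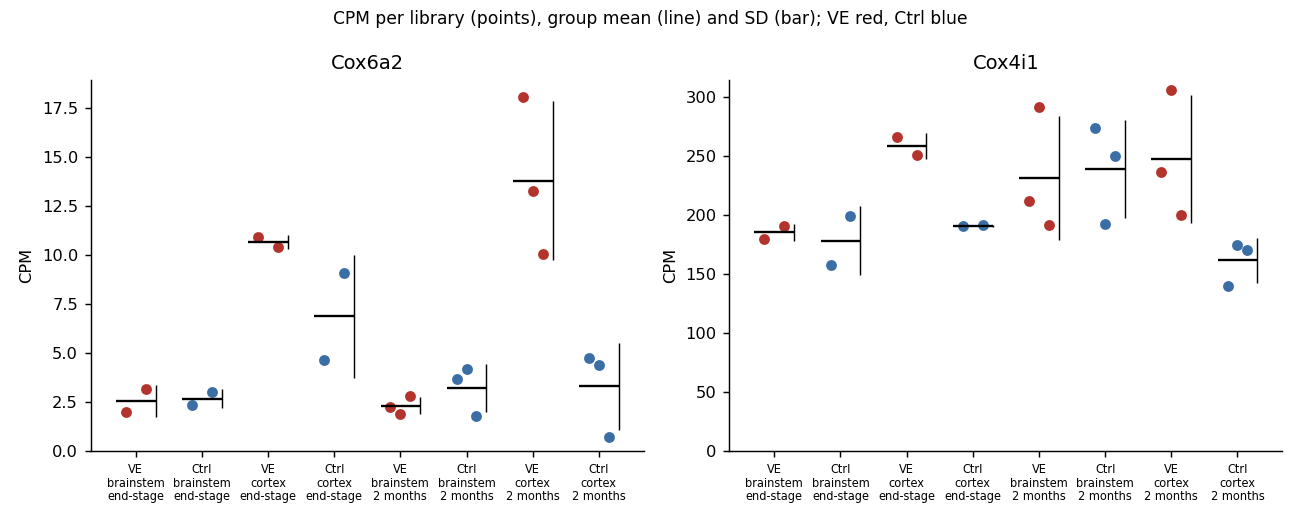
CPM of Cox6a2 and Cox4i1 in each of the 20 libraries, by region label, stage and genotype, with VE left of Ctrl. In cortex-labelled libraries at 2 months Cox6a2 lay at 10.0 to 18.1 CPM in VE and at 0.727 to 4.76 CPM in Ctrl libraries.

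Among the core subunits that carry the redox centres and the ATP synthase head, Sdha had a positive difference in each of the 4 genotype comparisons: 0.35 and 0.24 in brainstem-labelled and cortex-labelled libraries at end-stage, and 0.37 and 0.36 at 2 months, none of which passed. Atp5a1, Atp5b and Cox7a2l were likewise positive in each of the 4. Of the 78 kept members, 4 were positive and 23 negative in all 4 comparisons. The brainstem-labelled and cortex-labelled comparisons at 1 stage come from the same mice. Ndufv2, which binds an iron-sulfur cluster near the entry of NADH, stood at -0.39, -0.51, -0.25 and -0.28 in the same order. Ndufs8, a core subunit next to the quinone site, stood at -0.32, -0.26, -0.10 and -0.10. Ndufv1, which binds NADH, stood at 0.16, -0.21, 0.08 and 0.27. Uqcrc1 lay between -0.07 and 0.21 and Uqcrfs1 between -0.22 and -0.04. Cox5a, a nuclear subunit at the matrix face of complex IV, stood at -0.48, -0.17, -0.31 and 0.11, and Atp5c1, the rotating gamma subunit, at -0.13, -0.06, -0.10 and 0.14. None of these passed in any of the 4. The 2-month values rest on the count-column reading: under the record's genotypes Sdha stood at -0.01 and -0.15 in brainstem-labelled and cortex-labelled libraries, Atp5a1 at 0.07 and -0.14, Atp5b at 0.04 and -0.22, Cox7a2l at 0.01 and -0.21, and Ndufv2 at 0.12 and 0.09.

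Members were also split by the length of their mRNA. Of the 39 members with an mRNA at or under the median of 723 bases, 39 were negative in brainstem-labelled libraries at end-stage, with a median of -0.40, against 32 of the 39 longer ones, with a median of -0.30. At 2 months the same split gave medians of -0.26 and -0.15 in brainstem-labelled libraries. In cortex-labelled libraries at end-stage the shorter members had a median of -0.20 and the longer ones of -0.16, with 30 of 39 negative in both. In cortex-labelled libraries at 2 months shorter members had a median of 0.18 and longer ones of 0.04. The part of transcript length in these differences was not tested.

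The question of whether the mutant's difference depended on the region was put as an interaction. At 2 months the brainstem-labelled difference minus the cortex-labelled one was negative for 73 of 78 members, with a median of -0.33, against 0.02 for all genes. The edgeR test called 0 of 78 members and 0.0241% of all genes, 8 members had an unadjusted p under 0.05, and DESeq2 and limma-voom called 0 each. Cox6a2 had the lowest p, at -2.53 ± 0.72 (adjusted p = 0.314), and with mouse as a fixed block it passed, at -2.73 ± 0.55 (adjusted p = 0.0426). The members' median was -0.16 without Ctrl mouse M2618 and -0.47 without Ctrl mouse M2629, and under the record's genotypes it was 0.41. At end-stage the median was -0.16 with 59 members negative. It was -0.05 without Ctrl mouse M1521, -0.10 without VE mouse M1376 and -0.26 without VE mouse M1524. The test called 0 of 78 members and 0.0844% of all genes, with 0 members at an unadjusted p under 0.05 and 0 called by DESeq2 or limma-voom. Atp5s was lowest there by p, at -1.02 ± 0.50 (adjusted p = 0.937).

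Region itself separated 3 members. Averaged over genotype and stage, Cox6a2 and Cox6b2 were lower and Ndufs8 was higher in brainstem-labelled libraries, which is 3 of 78 members, while 14% of all genes tested were called. The members' median difference was 0.06, with 49 positive and 29 negative, against -0.01 for all genes, and the median standard error was 0.11. Complex I leaned to brainstem-labelled libraries, with 30 of 35 members positive and a median of 0.11, and complex IV to cortex-labelled ones, with 11 of 14 members negative and a median of -0.15. The share of members called was below that of all genes.

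Cox6a2 lay between 1.81 and 4.17 CPM in the 10 brainstem-labelled libraries (median 2.56) and between 0.727 and 18.1 CPM in the 10 cortex-labelled libraries (median 9.57). It was lower in the brainstem-labelled library in 9 of 10 mice, and the exception was M2633. The log2 difference was -1.51 ± 0.29 (adjusted p = 0.0021). At 2 months its mean share of the Cox6a1 and Cox6a2 pair, per kilobase, was 8.56% in VE cortex-labelled and 1.67% in VE brainstem-labelled libraries. In Ctrl mice at 2 months these shares were 2.87% and 2.12%. At end-stage they were 7.39% and 2.24% in VE and 4.65% and 2.00% in Ctrl mice. Under the record's genotypes the genotype by region difference of Cox6a2 at 2 months was 1.18, the other way. Cox6b2, the testis isoform, lay between 0.921 and 1.96 CPM in brainstem-labelled libraries (median 1.39) and between 1.65 and 6.37 CPM in cortex-labelled libraries (median 3.43), and it was lower in the brainstem-labelled library of 10 of 10 mice. Its difference was -1.30 ± 0.25 (adjusted p = 0.00242). Both are low isoforms whose general partners did not pass the same test, with Cox6a1 at -0.01 ± 0.12 and Cox6b1 at 0.09 ± 0.13.

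Ndufs8 (chr19:3908863-3912774, minus strand, GRCm38) lay between 102 and 197 CPM in brainstem-labelled libraries (median 152) and between 88.7 and 138 CPM in cortex-labelled libraries (median 109). It was higher in the brainstem-labelled library of 10 of 10 mice, by 0.34 ± 0.09 (adjusted p = 0.0162). Without Ctrl mouse M1521 the adjusted p was 0.0717 and without VE mouse M1524 it was 0.0712. Sdhc (0.28 ± 0.09, adjusted p = 0.0598), Ndufv2 (0.28 ± 0.11, adjusted p = 0.106) and, on the cortex side, Cox5b (-0.33 ± 0.11, adjusted p = 0.0628) were next by p and passed when mouse was a fixed block. Ndufv2 was higher in the brainstem-labelled library of 10 of 10 mice, Sdhc in 7, and Cox5b was lower in 9. Without VE mouse M2621, 5 members passed. Without the 4 mice of conflicting genotype only Cox6a2 passed, and Cox6b2 had an adjusted p of 0.152 and Ndufs8 of 0.181.

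Marker lists also differed between the regions, where 14% of all genes tested were called. In brainstem-labelled libraries 5 of 12 microglia markers were higher (P2ry12, Siglech, Gpr34, Fcrls and Sall1), 4 of 6 oligodendrocyte markers were lower (Mobp, Mbp and Mog among them) and 2 of 6 astrocyte markers were lower (Gfap and Aldh1l1). The 6 astrocyte markers together went the other way, with a higher sum in the brainstem-labelled library of every mouse. In M1376 the sums were 739 CPM brainstem-labelled and 735 CPM cortex-labelled, and in M2629 they were 1447 and 1005 CPM. Of the other lists, 1 gene each was lower for monocytes (Ms4a4c), border-associated macrophages (Siglec1) and neurons (Nefl), and 1 each was higher for T and NK cells (Klrd1), B cells (Ighm) and endothelial cells (Pecam1). Itgax was lower in brainstem-labelled libraries as well (-2.13, adjusted p = 0.000524), and Itgad did not pass (-1.08, adjusted p = 0.274). Their part in the members' differences was not tested.

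**Figure D4:**
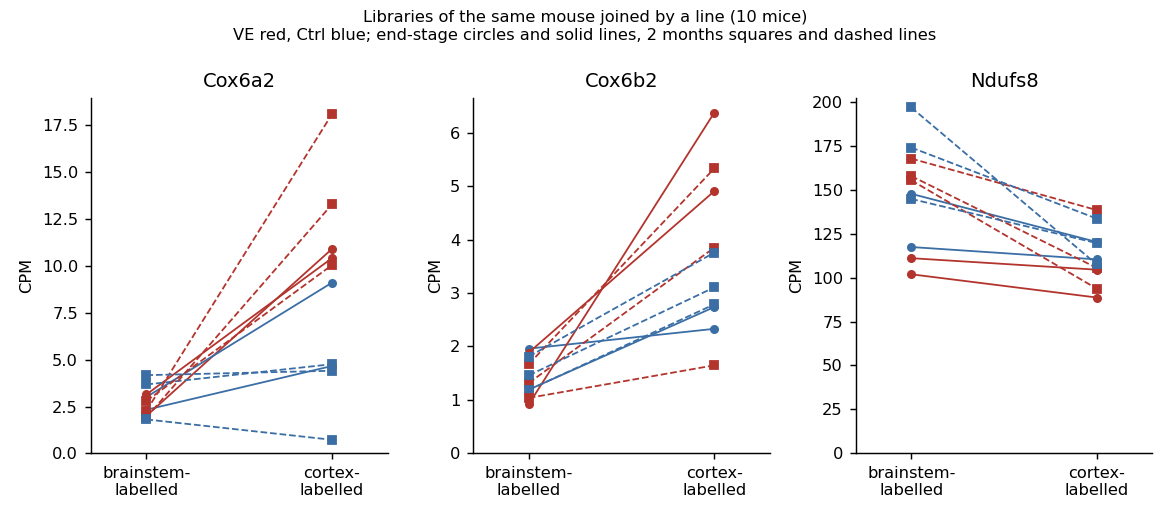
CPM of members in the brainstem-labelled and cortex-labelled library of each of the 10 mice, joined by a line per mouse. Cox6b2 was lower and Ndufs8 higher in the brainstem-labelled library of 10 of 10 mice, and Cox6a2 was lower in 9 of 10.

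Stage was compared within each genotype, as end-stage minus 2 months, and called no member in any of the 4 comparisons. In VE brainstem-labelled libraries 72 of 78 members were negative, with a median of -0.36, against 0.03 for all genes; the edgeR test called 0 of 78 members and 0.0422% of all genes, and 15 members had an unadjusted p under 0.05, all lower at end-stage. Ctrl brainstem-labelled libraries also had 72 negative members, with a median of -0.27; the test called 0 of 78 members and 0.0% of all genes, and 4 members had an unadjusted p under 0.05. In VE cortex-labelled libraries 65 members were negative, with a median of -0.19; 0 of 78 members and 1.84% of all genes were called, and 4 members had an unadjusted p under 0.05. Ctrl cortex-labelled libraries had 53 positive members, with a median of 0.09; 0 of 78 members and 0.0% of all genes were called, and 1 member had an unadjusted p under 0.05. DESeq2 and limma-voom called 0 members in each of these. In brainstem-labelled libraries the median was -0.19 without VE mouse M2621 in VE, and in Ctrl it was -0.16 without Ctrl mouse M1375 or M2618. The cortex-labelled medians rested on single mice: the VE one was -0.01 without VE mouse M2621 and -0.29 without VE mouse M2624, and the Ctrl one was -0.04 without Ctrl mouse M2618 and 0.16 without Ctrl mouse M2633. Under the record's genotypes the medians were -0.56 in VE and -0.06 in Ctrl brainstem-labelled libraries, and 0.03 in VE and -0.11 in Ctrl cortex-labelled ones.

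Of the 3 members lowest by p in the stage comparison of VE brainstem-labelled libraries, 2 belong to complex II. Sdhb had 119 and 127 CPM at end-stage and 157, 225 and 209 CPM at 2 months, without overlap (-0.67 ± 0.21, adjusted p = 0.288). Sdhc had 77.5 and 78.4 CPM at end-stage and 118, 126 and 124 CPM at 2 months, also without overlap (-0.65 ± 0.19, adjusted p = 0.253). Ndufs8 had 111 and 102 CPM at end-stage and 158, 168 and 155 CPM at 2 months (-0.59 ± 0.18, adjusted p = 0.286). In Ctrl brainstem-labelled libraries Sdhb had a difference of -0.51 ± 0.21 (adjusted p = 0.552). These comparisons share no library, and whether the VE and Ctrl differences by stage differed is the interaction that follows.

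The genotype difference at end-stage minus that at 2 months had a median of -0.26 over members in cortex-labelled libraries, with 70 negative, and of -0.12 in brainstem-labelled libraries, with 62 negative. The cortex-labelled median was -0.14 without Ctrl mouse M2618 or VE mouse M2621 and 0.12 under the record's genotypes. The brainstem-labelled one was 0.06 without VE mouse M2621, -0.01 without Ctrl mouse M1521, -0.02 without Ctrl mouse M2629, -0.21 without Ctrl mouse M1375 and -0.53 under the record's genotypes. In cortex-labelled libraries 0 of 78 members and 0.265% of all genes were called, with 2 members at an unadjusted p under 0.05. In brainstem-labelled libraries 0 of 78 members and 0.00603% of all genes were called, with 1 member at an unadjusted p under 0.05. DESeq2 and limma-voom called 0 members in either. Ndufs6, an accessory subunit of complex I, was lowest by p in cortex-labelled libraries (-0.74 ± 0.34, adjusted p = 0.487), and Atp5s in brainstem-labelled ones (-1.04 ± 0.46, adjusted p = 1.0).

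Subunits encoded in mitochondrial DNA had positive median differences by genotype where the nuclear members had negative ones, with cortex-labelled libraries at 2 months the exception. Of the 13 genes, 11 were kept, and their VE minus Ctrl medians were 0.33 and 0.91 in brainstem-labelled and cortex-labelled libraries at end-stage and 0.85 and 1.0 at 2 months. At 2 months, 1 of the 11 rose in VE cortex-labelled libraries, mt-Co1, a core subunit of complex IV (1.14 ± 0.25, adjusted p = 0.0116 in edgeR), where 5.45% of all genes tested were called. The edgeR test called 0 of them in the other 3 genotype comparisons, while DESeq2 called 1 in cortex-labelled libraries at end-stage. All 13 genes together summed to 2695, 1824 and 2615 CPM in VE and 1031, 1476 and 1276 CPM in Ctrl cortex-labelled libraries at 2 months, without overlap. Regrouped by the record, these sums were 1031, 2615 and 1276 CPM in VE and 2695, 1824 and 1476 CPM in Ctrl libraries, which overlap, and the 2-month medians of the 11 genes were -0.23 in brainstem-labelled and -0.32 in cortex-labelled libraries. In end-stage brainstem-labelled libraries the sums were 2838 and 2823 CPM in VE and 2898 and 1124 CPM in Ctrl libraries, which overlap through control M1375. In end-stage cortex-labelled libraries they were 2640 (M1376) and 1162 CPM (M1524) in VE and 859 (M1375) and 1080 CPM (M1521) in Ctrl. The VE value of M1524 was thus close to the Ctrl values. By region, 4 of 11 were higher in brainstem-labelled libraries: mt-Nd2 (1.21 ± 0.25, adjusted p = 0.00416), mt-Nd4, mt-Nd5 and mt-Nd6, all subunits of complex I. In the main test 14% of all genes tested were called by region. Of the 11 genes, 1 passed by region without Ctrl mouse M1375, 2 without VE mouse M1524 and 0 without the 4 mice of conflicting genotype. The call for mt-Co1 was lost without VE mouse M2617 or M2624 and without Ctrl mouse M2618 or M2633, in fits that called 0 of 11, and under the record's genotypes.

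Genes that build or support the complexes were set beside them. Among 46 kept assembly factors, the genotype medians were -0.14 and -0.27 at end-stage in brainstem-labelled and cortex-labelled libraries and -0.22 and -0.09 at 2 months. In VE cortex-labelled libraries at 2 months Coa5, a factor for complex IV assembly, rose (0.87, adjusted p = 0.0106) and Ndufaf7, a methyltransferase that acts on a complex I subunit, fell (-0.64, adjusted p = 0.0197). The 77 kept mitochondrial ribosomal proteins, which translate the mitochondrially encoded subunits, had medians of -0.25, -0.32, -0.22 and -0.08 in the same order, with 1 called, Mrpl50, which fell in VE cortex-labelled libraries at 2 months (-0.71, adjusted p = 0.0219). In that comparison 5.45% of all genes tested were called, a larger share than among the assembly factors or the mitochondrial ribosomal proteins. The 9 electron carriers and adaptors had medians of -0.29, -0.25, -0.22 and 0.07, with none called by genotype. The 15 genes of the TCA cycle, which feeds NADH and succinate to the chain, had medians of 0.05, -0.06, 0.06 and 0.07. The 12 kept regulators had medians of 0.00, 0.17, -0.05 and -0.02, with none called by genotype. Under the record's genotypes Coa5 (-0.11), Ndufaf7 (0.09) and Mrpl50 (0.26) did not pass in cortex-labelled libraries at 2 months, and the medians at 2 months in brainstem-labelled and cortex-labelled libraries were 0.12 and -0.09 for assembly factors and 0.15 and -0.18 for mitochondrial ribosomal proteins.

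By region, Gabpa, the ETS factor named above, was higher in brainstem-labelled libraries (0.50), and the coactivators Ppargc1b (-1.94) and Pprc1 (-0.46) were lower. Thus 3 of 12 regulators passed, while 14% of all genes tested were called. Of the other lists, Nubpl was higher and Cox17 lower among assembly factors, Etfb was higher among carriers, Idh3b was lower in the TCA cycle, and Mrps11 was higher and Mrpl33 lower in the mitochondrial ribosome.

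Differences were also set side by side for members with and without the promoter letters. In end-stage brainstem-labelled libraries the 24 kept members with any of the 3 motifs had a median VE minus Ctrl difference of -0.36, and so did the 41 without. The 10 with YY1 letters had a median of -0.43, against -0.35 for the 55 without. In end-stage cortex-labelled libraries the medians were -0.37 with YY1 letters and -0.17 without, and -0.07 with NRF1 letters and -0.20 without. At 2 months the medians with and without YY1 letters were -0.21 and -0.23 in brainstem-labelled libraries and -0.05 and 0.14 in cortex-labelled ones. With and without NRF1 letters they were -0.26 and -0.23 in brainstem-labelled libraries and 0.27 and 0.09 in cortex-labelled ones. These are descriptions of groups of genes, with no test.

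Cytosolic ribosomal proteins are another large set of abundant housekeeping genes with short mRNAs. In VE cortex-labelled libraries 35 of 75 rose at end-stage (median 0.92) and 56 of 75 at 2 months (median 1.02). Of all genes tested, 4.01% and 5.45% were called in these 2 comparisons, and DESeq2 called 51 and 66 of the ribosomal proteins. In brainstem-labelled libraries edgeR called 0 of 75 at either stage (medians 0.46 and 0.13), against 0.151% and 0.0362% of all genes tested. DESeq2 called 4 in brainstem-labelled libraries at end-stage and 0 at 2 months, and limma-voom 0 at both. Rpl32 had a difference of 1.53 ± 0.25 at end-stage (adjusted p = 0.00211) and 1.52 ± 0.20 at 2 months (adjusted p = 0.000571). By region 21 of 75 were lower in brainstem-labelled libraries, with a median of -0.29, while 14% of all genes tested were called. That count was 2 without VE mouse M1376, 7 without Ctrl mouse M1375 or VE mouse M2617, 8 without Ctrl mouse M1521 or M2629 and 13 without Ctrl mouse M2633. The end-stage count in cortex-labelled libraries was 1 without Ctrl mouse M1375, 3 without VE mouse M1376, 6 without Ctrl mouse M1521 and 12 without VE mouse M1524. Both genotype counts were 0 under the record's reading, where the 2-month cortex-labelled median was -0.65 and the count by region 2.

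**Figure D5:**
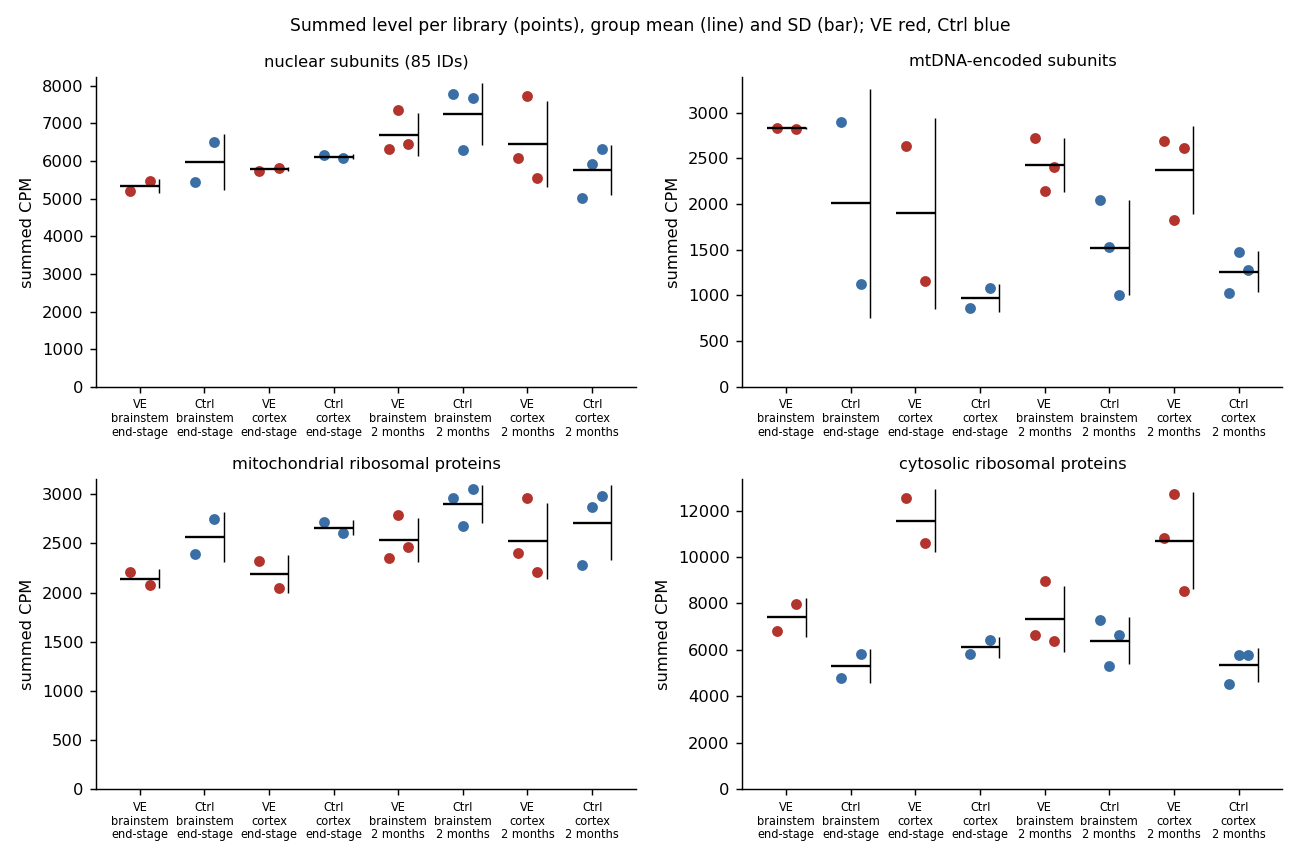
Summed CPM of all nuclear members, mitochondrially encoded subunits, mitochondrial ribosomal and cytosolic ribosomal proteins in each library, by region label, stage and genotype, with VE left of Ctrl. The nuclear members' sums of VE and Ctrl libraries overlap in cortex-labelled libraries at 2 months, while those of the mitochondrially encoded subunits do not under the count-column genotypes plotted.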

How the data were processed

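Raw counts per gene were deposited by the authors in 1 table, with no normalization. Per the submitters' processing notes, which give no versions, FastQC, Subread, edgeR and mouse build mm10 were used. The annotation, the strand setting and the handling of reads that match several genes are not given in the sources used here, so overlapping genes, antisense genes and near-identical copies can share reads. Per the labels' protocols, RNA was amplified with SMART-Seq v4 over 12 cycles and libraries were made with KAPA Hyper Prep over 8 cycles. Of 55487 identifiers, 55394 were matched to symbols of GRCm38.

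The main test was that of edgeR 4.0.16 (R 4.3.3), with filterByExpr, TMM factors, 1 quasi-likelihood model over 8 groups and 20 libraries, and Benjamini-Hochberg adjustment over all 16595 genes kept, with a threshold of 0.05. Errors of log2 differences are standard errors. CPM used TMM-scaled library sizes, and CPM per kilobase divided by the length of 1 mRNA per gene. Alternatives used DESeq2 1.42.0, limma-voom (limma 3.58.1), other scalings, no filter, mouse as a block, the record's genotypes, the compared groups alone and each mouse left out. The procedure was tested on simulated data. The brainstem-labelled and cortex-labelled libraries of a mouse come from 1 animal, and their deviations from the group means correlated over genes at 0.139 to 0.407 in the 10 mice. At end-stage, with 2 mice a group, both mice of a group give the same correlation by construction. Mouse was not a term of the main fit, so the 2 libraries of a mouse entered it as separate units. Groups hold 2 to 3 mice, and the p-values of the main test rest on a spread estimated for each gene over all 20 libraries. They do not measure the spread between the mice of the compared groups alone. Limits from counts speak of counting error alone, because PCR copies were not marked by molecular identifiers.

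Members, gene lists, motifs and comparisons were chosen with earlier results of these data known. The text names the core subunits and isoform pairs, the members that passed, otherwise up to 3 of lowest p in each direction, the highest and lowest by level, and up to 4 passing genes of each related list. Promoter windows are credited to RefSeq (GRCm38.p6). The 93 identifiers without a symbol held 0.0012% of counts. Single values of some genes are not reported here.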

Additional observations from a re-analysis of the deposited data

How the results depend on the processing

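The number of members called was recomputed under 179 alternatives, and 161 kept it within 1.5 times while 18 moved it, in 4 of the 13 comparisons. Most comparisons had a count of 0 in the main test, and an alternative that also called 0 was taken as keeping it. Apart from leaving out single mice, 2 of 7 alternatives kept the count for genotype in cortex-labelled libraries at 2 months. By region 4 of 8 did. In brainstem-labelled libraries at end-stage, 1 member was called without the low-count filter and 1 with DESeq2, Atp5s in both (adjusted p = 0.0182 and 0.0105), against 0. In cortex-labelled libraries at 2 months, where the count was 1, it was 0 under the sample record's genotypes, 0 with only the compared groups, 2 without the filter, 3 with DESeq2, and 3 with limma-voom and mouse as a random replicate block. Leaving out each mouse gave 0 to 2. By region, where the count was 3, it was 5 with DESeq2, 6 with limma-voom, 6 with mouse as a fixed replicate block and 1 without the 4 mice of conflicting genotype, and 2 to 5 when each mouse was left out. For genotype by region at 2 months it was 1 without the filter and 1 with the fixed replicate block, Cox6a2 in both, against 0. The replicate block changed the count of calls in no other comparison. Cox6a2 reversed in cortex-labelled libraries at 2 months under the record's genotypes, at -1.20 on the log2 scale, against 2.05, and ranged between 1.57 and 2.40 when each mouse was left out. The cause was not tested. The members' median also changed sign under the record's genotypes in both 2-month genotype comparisons (-0.26 cortex-labelled, 0.16 brainstem-labelled), for genotype by region at 2 months (0.41), for genotype by stage in cortex-labelled libraries (0.12) and for stage in VE (0.03) and Ctrl (-0.11) cortex-labelled libraries. It was 0.08 for stage in VE and -0.02 in Ctrl cortex-labelled libraries without the 4 mice, -0.04 for stage in Ctrl cortex-labelled libraries without Ctrl mouse M2618, -0.07 for genotype in cortex-labelled libraries at 2 months without VE mouse M2621, 0.04 for genotype by stage in cortex-labelled libraries without the 4 mice, and 0.06 for genotype by stage in brainstem-labelled libraries without VE mouse M2621. At end-stage the median stayed between -0.20 and -0.14 in cortex-labelled and between -0.44 and -0.26 in brainstem-labelled libraries when each mouse was left out.

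Scaling by total counts alone moved the median of all genes by -0.11 in cortex-labelled libraries at 2 months, by 0.15 and 0.12 for genotype by region at end-stage and 2 months, and by 0.17 and 0.14 for stage in VE and Ctrl brainstem-labelled libraries. The end-stage groups hold 2 mice each, and a member's standard error there had a median of 0.24. Low isoforms rest on few reads: Cox6a2 and Cox6b2 lay at a few CPM, where 3 counts are 0.142 to 0.319 CPM.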
